A study of Drosophila melanogaster with 2 samples.

Results

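The peaks described here are sites of Fer3-GFP occupancy at promoters that face one way. They were taken from the reproducible peak list of the series, which the authors derived from both replicates by an irreproducible discovery rate (IDR) threshold. A peak was included when its summit, the highest base of the peak, lay within 500 bp of the 5′ end of a protein-coding transcript (a start, as annotated) and every such start within 500 bp was on the same strand. This rule took 1696 of the 5636 reproducible peaks (30.1%, exact 95% interval 28.9 to 31.3%) and 67.0% of the 2531 peaks within 500 bp of a start. The other 835 promoter peaks had starts on both strands within 500 bp and are called divergent below, and 3105 peaks had no start that near.

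Chromatin was immunoprecipitated from whole Drosophila melanogaster embryos of 6 to 24 h and sequenced. The embryos came from a transgenic line with stable expression of Fer3 carrying GFP at its C terminus, and the precipitation used an antibody against GFP, although an antibody field of the labels names Fer3. Chromatin was sonicated to 200 to 800 bp. There was 1 group of 2 biological replicates, from separate biosamples of 1 line, so every sample carried the fusion and no comparison between conditions could be made. The promoter that drives the transgene is not given in the sources used here, whole embryos mix all cell types, and a sample without the fusion was not analysed here. No read counts are in the lists and the depth of each replicate is unknown, and intervals cover counting error over peaks only, since peaks and genes are not replicates.

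Fer3 belongs to the basic helix-loop-helix (bHLH) factors, proteins that bind as dimers to E-boxes, short sites of the form CANNTG. In the compact fly genome many housekeeping genes lie head to head and share the space between their starts, whereas a single-direction promoter serves genes on one strand. Fly promoters are known for a few short sequence elements: the site of the factor DREF (TATCGATA) and Motif 1 (GGTCACACT) are found at many housekeeping promoters, while the TATA box lies just upstream of the start at many regulated genes.

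The summit sequences of 9 members are printed 5′ to 3′ in the direction of the gene, on dm6, each cut so that no annotated exon base is shown. The first set holds the highest members on the chromosome arms printed here, and shows how rich in A and T the highest summits were; none of them holds a motif marked in capitals.
CG14100, chr3L:19590571-19590671, minus strand: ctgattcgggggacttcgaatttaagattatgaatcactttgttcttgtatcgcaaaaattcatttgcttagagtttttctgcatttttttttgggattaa
Ugalt, chrX:2703853-2703934, minus strand: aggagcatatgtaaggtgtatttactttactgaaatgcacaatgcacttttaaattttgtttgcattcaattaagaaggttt
ph-p, chrX:2137290-2137390, minus strand: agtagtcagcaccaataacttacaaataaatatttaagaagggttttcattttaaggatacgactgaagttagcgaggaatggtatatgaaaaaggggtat
The second set holds the highest members of those arms, outside exons, whose summit sequence carried TATCGATA (eEF1gamma, RpL27), GGTCACACT (crb, Rnp4F) or CAGCTG, an E-box (Hpf1, CG3009). Capitals mark these 3 motifs on either strand, and Rnp4F carries both of the promoter elements.
eEF1gamma, chr3R:29220096-29220171, plus strand: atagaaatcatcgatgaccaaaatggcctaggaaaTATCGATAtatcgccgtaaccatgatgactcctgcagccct
RpL27, chr3R:25685052-25685134, minus strand: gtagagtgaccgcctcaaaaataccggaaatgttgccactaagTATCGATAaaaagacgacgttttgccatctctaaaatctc
crb, chr3R:24294962-24295062, plus strand: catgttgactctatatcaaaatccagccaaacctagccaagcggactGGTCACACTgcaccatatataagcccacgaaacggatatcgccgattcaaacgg
Rnp4F, chrX:5322697-5322795, minus strand: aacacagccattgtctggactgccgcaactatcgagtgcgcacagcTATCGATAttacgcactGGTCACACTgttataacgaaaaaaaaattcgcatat
Hpf1, chr3R:5791725-5791825, plus strand: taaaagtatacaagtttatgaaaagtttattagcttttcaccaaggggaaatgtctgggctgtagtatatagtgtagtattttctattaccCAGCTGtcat
CG3009, chrX:4666967-4667067, minus strand: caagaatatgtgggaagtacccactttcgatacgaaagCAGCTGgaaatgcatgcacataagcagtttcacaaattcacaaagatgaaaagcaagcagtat

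The genes behind these sequences differ in role. Ugalt encodes a transporter of UDP-galactose, ph-p (polyhomeotic proximal) a Polycomb protein that keeps genes silent, eEF1gamma a translation elongation factor, and RpL27 a protein of the large ribosomal subunit. crb (crumbs) sets apical polarity in epithelia, Rnp4F acts in the assembly of splicing particles, and Hpf1 directs the ADP-ribosylation of histones.

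The highest member lay 97 bp upstream of the start of CG14100 (FBgn0036889, chr3L, summit at 19590621), between genes, and was also the highest peak of the whole list. Its signal value, the authors' measure of height in an undefined unit, was 5902 in the series list, 2535 in replicate 1 and 3384 in replicate 2, where it ranked 1 in both. The summit at Ugalt (chrX, 2703884), 32 bp upstream of the start, had a signal value of 4907 in the series list, 1805 in replicate 1 and 3131 in replicate 2, and ranked 4 and 3 in the replicate lists. Heights were compared between lists by rank only, and all 15 of the highest members ranked among the first 59 peaks of replicate 1 and the first 39 of replicate 2.

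Of these 15 highest summits, all but that at PNPase were upstream of their nearest start, which for several was not the outermost start of the gene. The summit at ph-p (chrX, 2137340) lay 485 bp upstream of its nearest start, inside an intron of longer ph-p transcripts, with a signal value of 3786 in the series list, 1500 in replicate 1 and 2331 in replicate 2. The gene held another member, ranked 36 in the series list, 561 bp away. The exception, PNPase, encodes the mitochondrial RNA-degrading enzyme polynucleotide phosphorylase, and its summit lay 79 bp past the start in the 5′ UTR. Its signal value was 3341 in the series list, 1199 in replicate 1 and 2143 in replicate 2. mRpL41, a mitochondrial ribosomal protein gene, had the second highest member, 136 bp upstream of its start, at 4979 in the series list, 2063 in replicate 1 and 2915 in replicate 2. The others were at CG18549, Gapdh2, Fkbp14 (a protein-folding isomerase), px (plexus, a wing vein gene), CG1635, CG1888, larp (an RNA-binding protein), eIF6 (a factor of ribosome subunit assembly), Tina-1 and gish (a casein kinase), 105 to 334 bp upstream of the nearest start. Like that at ph-p, the summits at Fkbp14, px, CG1888, larp and gish lay inside their own gene, downstream of its outermost start.

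Of the 1696 members, 1389 had 1 distinct start within 500 bp, 307 had 2 or more, and 45 had starts of 2 or more genes on the same strand. The genes were on the plus strand for 799 members (47.1%, 44.7 to 49.5%). The members marked 1579 of 13968 protein-coding genes (11.3%), of which 139 held 2 or more members and 20 held 3 or more. In some of these genes the summits lay about 200 bp apart, as at eEF5 (199 bp) and papi (200 bp). That is near the length of the shortest sonicated fragments, and whether such summits mark separate sites was not tested. Rtnl1, a reticulon of the endoplasmic reticulum, held 5, the best ranked 58 and the worst 4084. At the edge of the rule, the members at FucTC (499 bp downstream, rank 3143) and CG7029 (500 bp upstream, rank 4617) were just inside, and the peaks at qtc (503 bp downstream, rank 1863) and gem (507 bp upstream, rank 4122) just outside.

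The summits did not lie evenly around the start. The rule fixed the distance and the strand but not the side, and 1348 summits (79.5%, 77.5 to 81.4%) were upstream, 344 downstream and 4 on the start base. Counting upstream positions as negative, the median position was −133 bp, with quartiles of −243.5 and −22 bp. The fullest 100 bp were those ending 100 bp upstream of the start, with 428 members, against 52 members in the 100 bp that began 100 bp downstream. The side was alike for genes on the plus strand (80.1% upstream) and the minus strand (78.9%). Measured from the most upstream start in reach, 74.1% of summits were upstream.

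**Figure D1:**
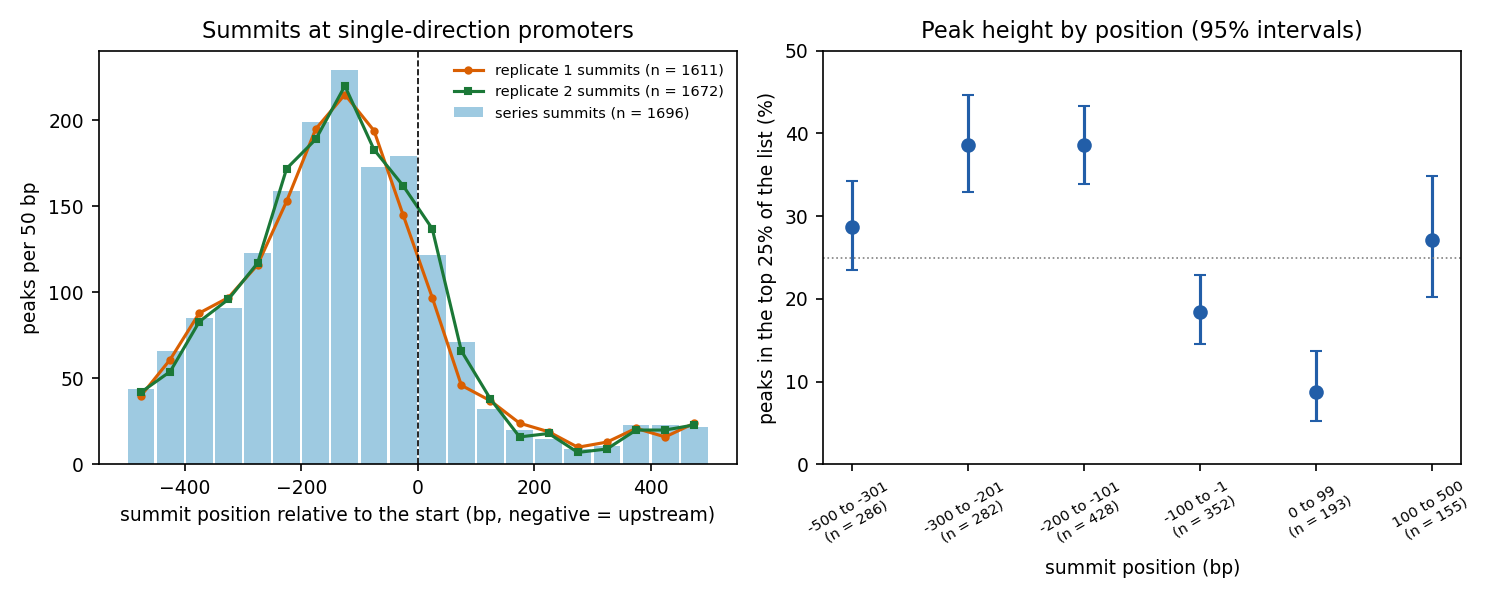
Left, number of summits per 50 bp against position relative to the nearest start (negative is upstream), as bars for the series list and lines for each replicate's own summits that fall within 500 bp; most of all 3 sets lie upstream. Right, percent of members in the top 25% of the reproducible list by signal value and position, with exact 95% intervals, the number of members under each bin and 25% as a dotted line; the share is 38.7% between 300 and 200 bp upstream and 8.81% in the first 100 bp of the transcript.

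Each replicate's own summits also lay mostly upstream. Replicate 1 summits were upstream of the same start in 81.0% of 1620 members (79.0 to 82.9%), with a median of −141 bp, and replicate 2 summits in 78.7% of 1682 members (76.6 to 80.6%), with a median of −130.5 bp. The replicate summit lay within 50 bp of the series summit for 88.5% of members in replicate 1 and 92.7% in replicate 2. In the plot of summit positions the replicates differ most just past the start, with 97 summits of replicate 1 and 137 of replicate 2 in the first 50 bp, and 46 and 66 in the next 50 bp.

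Height varied with position, which the rule did not use. The share of members in the top 25% of the reproducible list by signal value was 31.2% upstream and 17.2% downstream, a difference of 14.1 points (Newcombe 95% interval 9.11 to 18.5). It was highest between 300 and 200 bp (38.7%, 32.9 to 44.6%) and between 200 and 100 bp upstream (38.6%, 33.9 to 43.3%). In the last 100 bp before the start it was 18.5% (14.6 to 22.9%), and in the first 100 bp after it 8.81% (5.22 to 13.7%). Farther out it was 28.7% (23.5 to 34.3%) from 500 to 300 bp upstream and 27.1% (20.3 to 34.8%) from 100 to 500 bp downstream, so the low shares were those close to the start on both sides. The median signal value in the series list was 278 between 300 and 200 bp upstream, 284 between 200 and 100 bp, 199 in the last 100 bp before the start and 172 in the first 100 bp after it. Split the other way, 87.7% of the highest 424 members were upstream, and 71.7% of the lowest 424.

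The bases under the summits were mostly intergenic, intronic or in 5′ UTRs. Of all members, 777 summits (45.8%) lay between genes, 528 (31.1%) in introns, 310 (18.3%) in 5′ UTRs, 37 in 3′ UTRs, 33 in other exons and 11 in coding exons. A summit inside another protein-coding gene was found in 173 members (10.2%). Of the 344 downstream summits, 239 were in a 5′ UTR. The 103 that lay 200 to 500 bp downstream were mostly in introns, 75 of 103 (72.8%, 63.2 to 81.1%).

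The rule counted protein-coding starts only. A start of another kind of gene on the opposite strand lay within 500 bp of 95 members (5.60%, 4.56 to 6.80%), so those promoters also have annotated transcription the other way. The nearest opposite-strand protein-coding start was within 1000 bp for 229 members (13.5%) and within 5000 bp for 989 (58.3%), with a median of 3952.5 bp.

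A single-direction start was less often occupied than a paired one. Of 14793 lone starts, those with no opposite-strand protein-coding start within 500 bp, 2158 (14.6%, 14.0 to 15.2%) had a reproducible summit within 500 bp. Of 4483 paired starts, 1825 (40.7%, 39.3 to 42.2%) had one, a difference of −26.1 points for lone minus paired starts (Newcombe 95% interval −27.7 to −24.6). A summit between paired starts counts for both of them. Among genes with 1 start, the shares were 10.6% of 7601 lone genes and 36.5% of 2668 paired genes. Over the large chromosome arms the lone-start share ran from 13.8% on 2R to 15.4% on X, and on Y it was 0 of 23 (exact upper limit 14.8%). On chromosome 4, a small and largely heterochromatic chromosome, it was 6.50% (8 of 123, 2.85 to 12.4%).

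Nearly all members were also peaks in each replicate list. Of the members, 1620 (95.5%, 94.4 to 96.5%) overlapped a replicate 1 peak by at least 1 bp, 1682 (99.2%) a replicate 2 peak, 1606 (94.7%) both, and 0 neither, as the list was derived from both replicates. With a deposited q of at most 0.05 required, 1549 members (91.3%) had a replicate 1 peak, against 93.8% of all reproducible peaks, and 1677 (98.9%) a replicate 2 peak, against 98.5%. With any q, the replicate 1 share was 2.94 points higher than at divergent promoters (1.02 to 5.11) and differed by −3.19 points from that away from promoters (−4.34 to −2.19). With q at most 0.05 the difference from divergent promoters was 0.554 points, with an interval that includes 0 (−1.73 to 3.04), and that from peaks away from promoters −4.67 points (−6.24 to −3.22). With any q, the replicate 1 share was lowest near the start, at 91.5% in the last 100 bp before it and 91.2% in the first 100 bp after it. Across the 1606 members in both lists the signal values had a Spearman correlation of 0.825 between replicates, a description over sites that share the same libraries and the same control alignment.

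**Figure D2:**
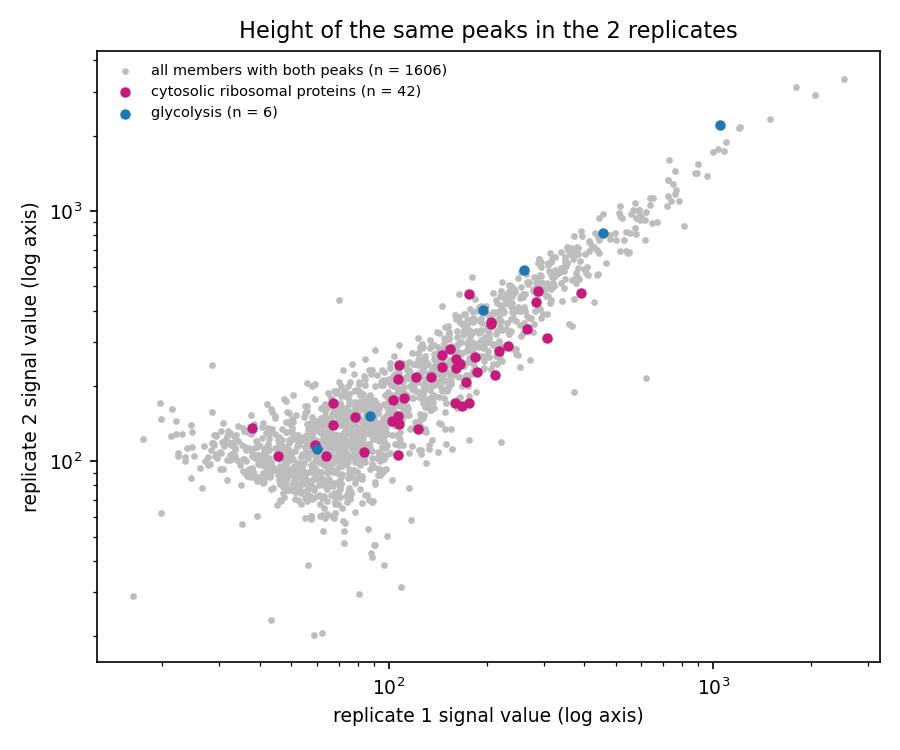
Signal value of the same member in replicate 1 (horizontal) and replicate 2 (vertical), both on log axes, for the 1606 members with a peak in both lists, with 42 members at cytosolic ribosomal protein genes and 6 at glycolysis genes in colour. The points form a narrow band at the high end and spread at the low end.

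Members were somewhat overrepresented at the top of the list, while their median height was close to that of the whole list. In the top 25% of the list by signal value were 480 members (28.3%, 26.2 to 30.5%). This was lower than at divergent promoters (35.3%), a difference of −7.03 points (−10.9 to −3.18), and higher than away from promoters (20.4%), a difference of 7.88 points (5.33 to 10.5). Of the 100 highest peaks, 39 were members. The median member signal value in the series list was 227, with quartiles 160 and 411 and a range of 126 to 5902. For all reproducible peaks the median was 224, with quartiles 161 and 369.

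Summit sequences were rich in A and T. In windows reaching 50 bp to each side of the summit the mean GC content was 34.8% ± 10.4 (SD over 1696 windows), against 39.7% in windows 500 bp upstream in gene direction and 46.3% in windows 500 bp downstream. Divergent summits had 31.1% and summits away from promoters 32.2%. GC content was 30.6% in the highest 424 members and 38.3% in the lowest 424. It also changed with position, from 31.1% between 200 and 100 bp upstream to 41.3% in the last 100 bp before the start and 43.9% in the first 100 bp after it. Height, position and GC content thus moved together, and their parts were not separated. A run of at least 6 A or 6 T was present in 26.4% of summit windows, 18.6% of upstream and 16.9% of downstream windows. Divergent summits held one in 27.9% and summits away from promoters in 26.9%, so the share was much the same in all 3 classes.

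The genes' own start regions showed a related pattern. Around the 1655 nearest starts of members, GC content was 34.1% from 250 to 226 bp upstream and 47.6% in the last 25 bp before the start. At lone starts without a summit it was 38.3% and 43.8% in the same bins. Member starts were thus poorer in G and C in the upstream region where most summits lay, and richer at the start itself.

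**Figure D3:**
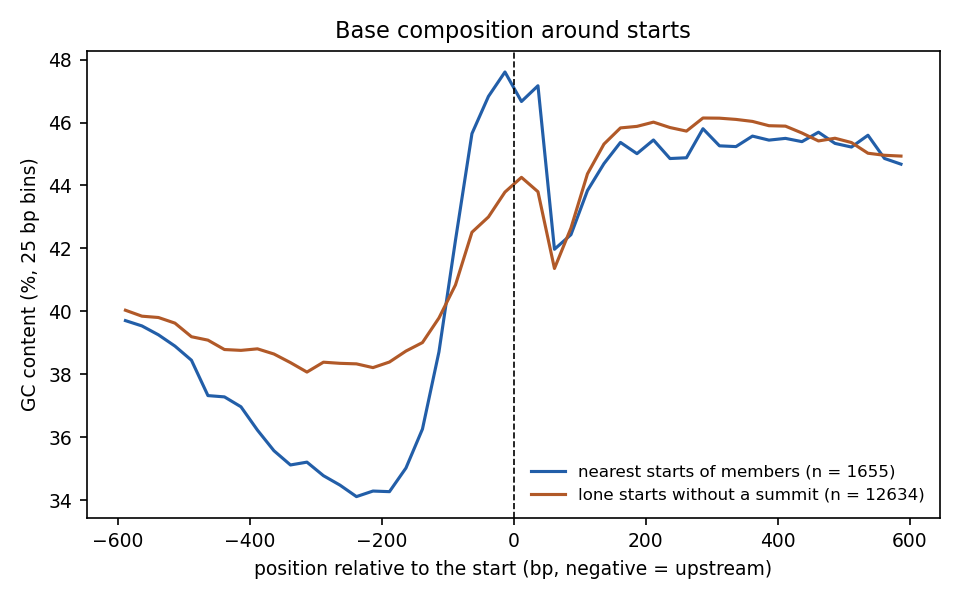
Mean GC content in 25 bp bins against position relative to the start, for the 1655 nearest starts of members and for lone starts without a summit. The member line is lower from about 500 to 125 bp upstream, reaching 34.1%, and higher around the start, at 47.6%.

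Promoter elements were present at few members but concentrated close to the start. TATCGATA was in 42 summit windows (2.48%, 1.79 to 3.33%), against 1.51% of all reproducible peaks, 4.07% of divergent peaks and 0.290% of peaks away from promoters. The difference from peaks away from promoters was 2.19 points (1.50 to 3.05), and from divergent peaks it was −1.60 points (−3.29 to −0.168). It was in 0.590% of windows 500 bp upstream of the same summits and 0.118% of those 500 bp downstream. Of the 42 members, 33 had their summit in the last 100 bp before the start, where 9.38% of summits carried the site, and the sites lay at a median of −49.5 bp from the start and 20.5 bp from the summit. Windows of 100 bp to each side held it in 5.01% of members. eEF1gamma, printed above, has its summit 26 bp upstream of the start and had signal values of 404 in replicate 1 and 565 in replicate 2. The highest member with the motif, at Alg3 (a mannosyltransferase of N-glycan synthesis, rank 94), had 671 in replicate 1 and 900 in replicate 2.

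GGTCACACT was in 18 windows (1.06%, 0.630 to 1.67%), against 0.532% of the list and 0.0966% of peaks away from promoters, a difference of 0.965 points (0.533 to 1.58). Of these 18 matches, 14 were on the strand of the gene (77.8%, 52.4 to 93.6%). The motif was scarce among the highest members, 1 of the highest 424 and 8 of the lowest 424. The highest member with it was at RpL37A, a ribosomal protein gene, with a signal value of 412 in the series list, 161 in replicate 1 and 257 in replicate 2. Motif 7 (CATCNCT) was in 74 windows (4.36%, against 3.19% of the list), more often on the gene strand (48 against 24 with a match on 1 strand only). Motif 6 (GTATTTT) was in 99 windows (5.84%, against 6.26% of the list).

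**Figure D4:**
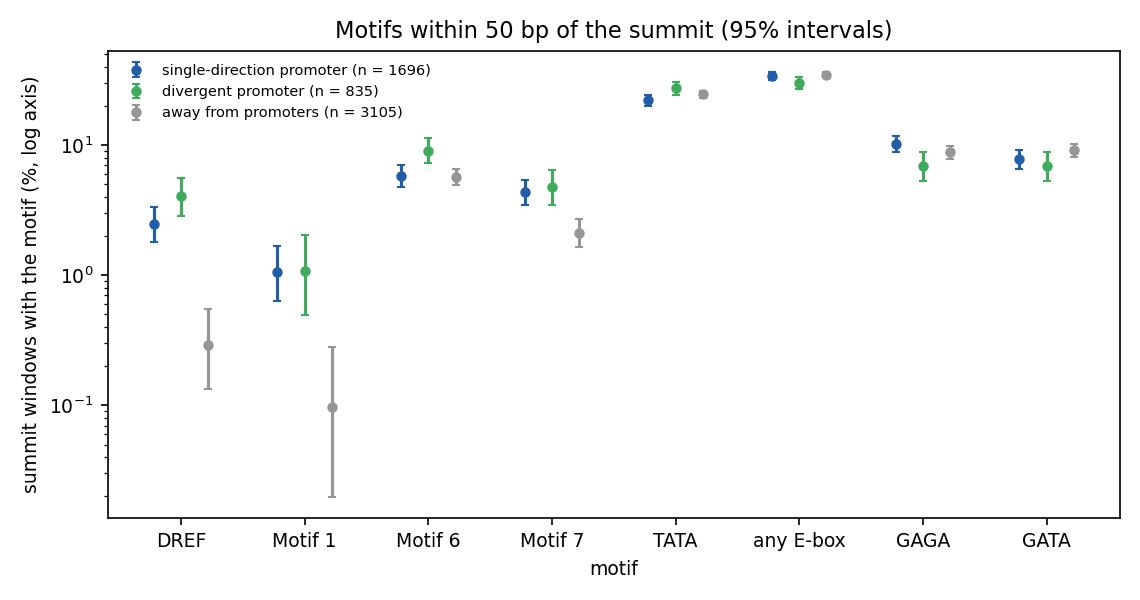
Percent of summit windows (50 bp to each side) with each motif on either strand, on a log axis, with exact 95% intervals, for single-direction, divergent and non-promoter peaks. The DREF and Motif 1 shares are 2.48% and 1.06% at single-direction promoters and 0.290% and 0.0966% away from promoters, while the TATA motif and any E-box, the most frequent of the panel, range from 22.1% to 34.8% over the 3 classes.

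E-boxes, the sites bHLH proteins bind, were not more frequent under the summits than beside them. Any E-box (CANNTG) was in 579 windows (34.1%, 31.9 to 36.5%), against 33.9% of the list, 39.6% of windows 500 bp upstream and 41.9% of those 500 bp downstream, windows that also held more G and C; the part of base composition in this was not tested. The class CAGCTG was in 76 windows (4.48%, 3.55 to 5.58%), against 3.55% of the list and 3.03% of peaks away from promoters, a difference of 1.45 points (0.347 to 2.67). The difference from divergent peaks (3.59%) was 0.888 points, with an interval that includes 0 (−0.845 to 2.41). In the 200 bp upstream of the start it was at 13.6% of member starts and 10.3% of lone starts without a summit, a difference of 3.25 points (1.59 to 5.06). Over all protein-coding starts it was at 11.9%. Any E-box went the other way in those 200 bp, at 59.0% of member starts and 62.7% of lone starts without a summit, a difference of −3.69 points (−6.22 to −1.19). CATATG was at 6.71% and 5.54% of the same starts and CACGTG at 2.05% and 2.13%, both with difference intervals that include 0. Beside the summits, CAGCTG was in 4.60% of the upstream and 6.19% of the downstream windows, and was in 2.36% of the highest 424 members and 6.13% of the lowest 424. CATATG was in 3.24% of members (3.83% of the list) and CACGTG in 1.12% (0.656% of the list). Hpf1, the highest member with CAGCTG, had signal values of 1596 in the series list, 586 in replicate 1 and 1003 in replicate 2.

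The remaining panel motifs were counted both under the summits and upstream of the starts. TATAAA, which is A- and T-rich like the summits, was in 22.1% of members, against 24.3% of the list, and in 28.8% of the highest 424 members against 18.4% of the lowest 424. At the place of a working TATA box, 20 to 40 bp upstream of the start on the gene strand, it was found at 62 of 1655 member starts (3.75%, 2.88 to 4.78%) and at 959 of 12635 lone starts without a summit (7.59%), a difference of −3.84 points (−4.79 to −2.72). GAGAG, a site of the GAGA factor, was in 10.2% of summit windows (8.96% of the list). Beside the summits it was in 12.6% of windows 500 bp upstream and 14.2% of those 500 bp downstream. GAGAG was in 6.84% of the highest 424 members and 14.9% of the lowest 424. In the 200 bp upstream of the start it was at 36.7% of member starts and 26.9% of lone starts without a summit, a difference of 9.88 points (7.46 to 12.4). Over all protein-coding starts it was at 25.2%. The GATA factor site AGATAA was in 7.78% of members (8.41% of the list). TATCGATA was in those 200 bp at 6.10% of member starts and 3.84% of lone starts without a summit. Over all protein-coding starts, paired ones included, the share was 6.13%, much the same as at member starts.

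Members fell on some gene groups and missed others. Of 85 cytosolic ribosomal protein genes, 45 (52.9%, 41.8 to 63.9%) had a start within 500 bp of a member summit, against 11.3% of all protein-coding genes, 28 had a divergent summit only and 12 had none. With 250 bp in place of 500 bp in the rule 58 had a member, and with 1000 bp 28. Among those with lone starts only, 43 of 52 (82.7%) had a summit, against 1544 of 10090 such genes in all (15.3%). The summits nearest to these genes sat close to the start: all 44 were within 100 bp of it, from 99 bp upstream to 37 bp downstream with a median of 13 bp upstream, where 546 of all 1696 members (32.2%) lay that near. Their windows had a mean GC content of 45.5%. The highest was at RpL23A, 98 bp upstream, with a signal value of 849 in the series list, 392 in replicate 1 and 472 in replicate 2. TATCGATA was in 4 of the 44 windows and GGTCACACT in 3.

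Glycolysis genes gave another layout. Of 12, 6 had a member summit (50%, 21.1 to 78.9%, against 11.3% of all genes). The highest summit of each of the 6 lay 168 to 415 bp upstream, with a mean GC content of 30.9% over the 6 windows. Gapdh2 (glyceraldehyde-3-phosphate dehydrogenase) had 3230 in the series list, 1047 in replicate 1 and 2207 in replicate 2, and Hex-A (hexokinase) 1263 in the series list, 458 in replicate 1 and 819 in replicate 2. Eno (enolase), Pgk (phosphoglycerate kinase), PyK (pyruvate kinase) and Tpi (triose phosphate isomerase) ranked 339, 651, 2549 and 3985. Pgk and PyK each held another member, ranked 817 and 3006, which lay 281 and 211 bp upstream of its nearest start. The summits were 1641 bp apart at Pgk but 204 bp apart at PyK, where separate sites were not tested for.

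**Figure D5:**
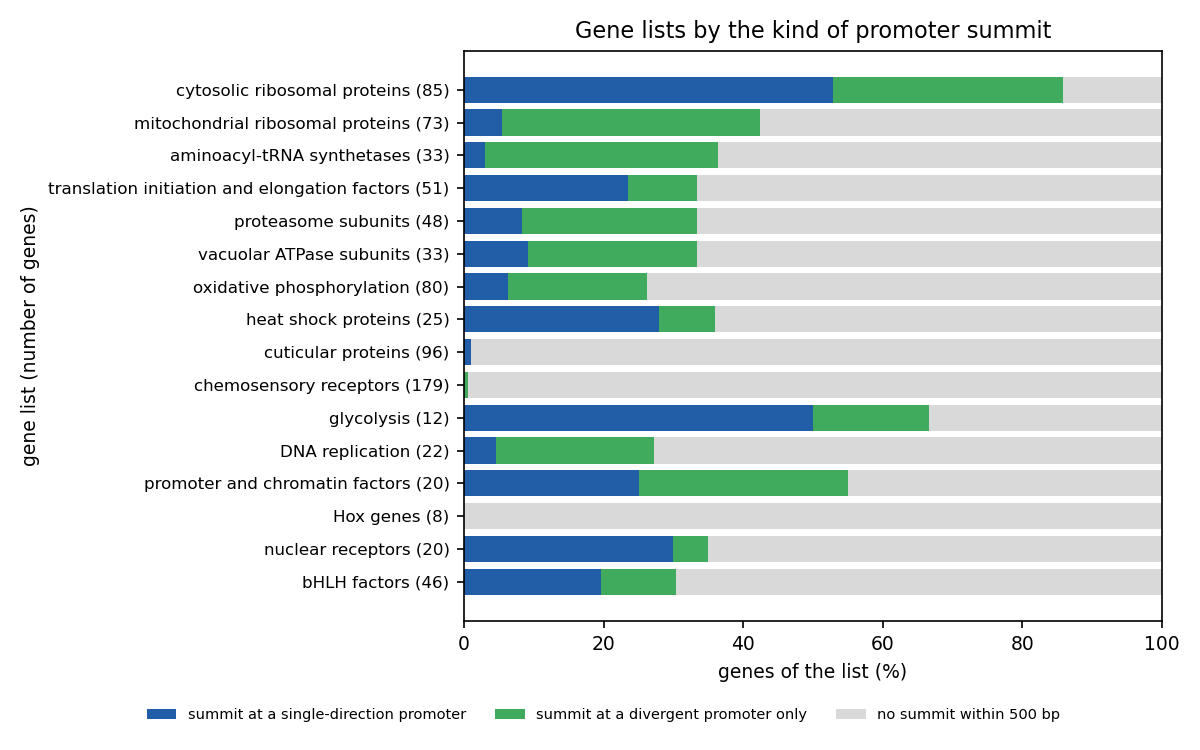
Percent of the genes in each of 16 lists with a summit at a single-direction promoter, with one at a divergent promoter only, or with none within 500 bp; the number of genes is in brackets. Cytosolic ribosomal protein and glycolysis genes have the longest single-direction bars, 52.9% and 50%, while mitochondrial ribosomal protein genes have 27 with a divergent summit only against 4 with a single-direction one.

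In most other translation and housekeeping lists the larger part of the genes had no summit within 500 bp. This held over all protein-coding genes too, of which only 3163 of 13968 (22.6%) had one, so it marks no lack of summits in these lists. Over all 13968 protein-coding genes 1579 (11.3%) had a member and 1674 a divergent summit. Of 51 translation initiation and elongation factor genes 12 had a member (23.5%, 12.8 to 37.5%), 5 a divergent summit only and 34 none. Of 73 mitochondrial ribosomal protein genes 4 had a member, 27 a divergent summit only and 42 none. Of 33 aminoacyl-tRNA synthetase genes 1 had a member, 11 a divergent summit only and 21 none. Of 48 proteasome genes 4 had a member, 12 a divergent summit only and 32 none. The vacuolar ATPase counts were 3, 8 and 22 of 33 genes in the same order, and those of oxidative phosphorylation 5, 16 and 59 of 80. DNA replication genes gave 1, 5 and 16 of 22, the 1 being geminin (an inhibitor of replication licensing). For the proteasome, vacuolar ATPase, oxidative phosphorylation, synthetase, mitochondrial ribosomal and DNA replication lists, the exact interval of the member share held 11.3%. Heat shock genes gave 7 of 25 with a member (28%, 12.1 to 49.4%), all upstream of their nearest start, as were 79.5% of all members. The highest was Hsp83, the fly Hsp90, at 443 in replicate 1 and 935 in replicate 2. Its summit lay in a 5′ UTR, past the outermost start of the gene.

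Among regulators, the member shares of bHLH and promoter factor genes had intervals that held the 11.3% of all genes. Of 46 bHLH genes 9 had a member (19.6%, 9.36 to 33.9%), all upstream of the nearest start (79.5% of all members were) at a median of −229 bp. These were trh (tracheal identity), E(spl)m3-HLH and E(spl)m7-HLH (Notch targets), net, da (the shared dimer partner of many bHLH proteins), Mondo, sima, gce and Oli. The member at da had no replicate 1 peak, and that at gce ranked 29652 in replicate 1 and 18732 in replicate 2, with signal values of 16.2 and 28.8. The highest was trh, at 182 in replicate 1 and 394 in replicate 2, 407 bp upstream of its nearest start. That summit lay in an intron inside trh, downstream of the gene's outermost start. Fer3 itself had no reproducible summit within 500 bp of its start. The nearest member, at CG6908 within 10 kb of Fer3, had a signal value of 35.4 in replicate 1, rank 8482, and 135 in replicate 2, rank 3072. Of 20 nuclear receptor genes 6 had a member (30%, 11.9 to 54.3%), among them Eip75B, EcR (the ecdysone receptor), Hnf4 and ERR, and of 20 promoter and chromatin factor genes 5 (25%, 8.66 to 49.1%), among them Trl, which encodes the GAGA factor, and BEAF-32, an insulator protein.

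The lists of chemosensory receptors, Hox genes and cuticular proteins were nearly free of members. Of 179 chemosensory receptor genes 0 had a member, an upper limit of 2.04% by the exact interval, and 1 had a divergent summit. Of 8 Hox genes, which set segment identity, 0 had one, which by the same interval allows up to 36.9% and so holds the 11.3% of all genes. Of 96 symbols in the cuticular protein list 1 had a member, and that symbol, Cpr, belongs to cytochrome P450 reductase, which the symbol pattern caught.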

How the data were processed

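Peak lists of 2 replicates, their pooled list and the reproducible list were used as the authors deposited them, on dm6. Signal values and −log10 q-values are the authors' deposited numbers and served to describe, rank and filter peaks within a list. An age field of the labels holds an impossible embryo age and was not used. The lists were derived from both replicates and 1 control alignment, per the deposited file descriptions; how reads were aligned and peaks called is not given in the sources used here. Each replicate list and the pooled list holds 30000 peaks.

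Summits were matched to Ensembl release 115 protein-coding transcripts (BDGP 6.54, dm6 coordinates), and sequences are from the RefSeq copy of the same assembly. Motifs were counted on either strand in windows of 50 bp to each side of the summit, with the share of all reproducible windows as background; TATAAA and other motifs can overlap one another. Shares have exact Clopper-Pearson 95% intervals and differences between disjoint classes Newcombe intervals; there are no p-values. Functions were tested on simulated data. Genes named are the nearest to the 15 highest members, the highest member of each list or motif, the Fer3 locus and the peaks at the 500 bp limit; others are named as list members. The members and lists were chosen with earlier results of these data known, and A/T runs, position bins, TATA position and list positions were added after the data were seen. In all, 4 listed symbols had no match. Alternatives changed the distance, the starts, the replicate, the height limit, the overlap rule and the window. The tools were scipy 1.17.1, numpy 2.4.6, matplotlib 3.10.9 and pandas 2.3.3 under Python 3.11.15.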

Additional observations from a re-analysis of the deposited data

How the results depend on the processing

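No paired analysis was possible because there is 1 group of 2 replicates. Of 103 values recomputed under 10 settings, 61 moved little and 42 moved. Little means within the exact interval for a share, within 1.5 times for a count, and for GC content within the SD over windows, a wide limit that a mean can hardly leave. With 250 bp in place of 500 bp, members were 26.3% of the list, 94.3% had a replicate 1 peak, 3.38% carried TATCGATA, 2.50% had a noncoding opposite start, and 13.3% of lone and 31.0% of paired starts were occupied. With 1000 bp these were 35.2% of the list, 72.9% upstream, 1.72% with TATCGATA, 8.32% with a noncoding start, 18.1% and 42.7% of starts, and 28 ribosomal protein genes. With the outermost start of each gene, they were 22.8% of the list, 76.0% upstream, 3.42% with TATCGATA, and 13.4% and 39.0% of starts. Starts of all genes gave 12.6% and 35.3%. The highest 2818 peaks held 860 members: 85.8% upstream, 98.3% and 99.8% with a replicate 1 and 2 peak, 30.6% in their top 25%, 0.465% with GGTCACACT, 3.26% with CAGCTG, and 7.62% and 25.8% of starts. Requiring 50% overlap gave 79.7% and 93.0% in the replicates, and summits within 100 bp 92.6% and 97.6%. Windows of 100 bp to each side gave 5.01% with TATCGATA, 2.71% with GGTCACACT and 9.91% with CAGCTG. The causes were not tested. To leave out 1 replicate, the 5636 highest peaks by signal value of the other replicate replaced the reproducible list, which was not derived anew. This gave ranges of 28.8 to 31.2% for the share of the list, 76.9 to 81.7% upstream and 38.6 to 40.4% of paired starts. In these lists 90.7% of members had a replicate 1 peak without replicate 1 and 96.1% a replicate 2 peak without replicate 2. Depth is unknown, so absent peaks say nothing on occupancy below the lists' limits.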
